A study of Rattus norvegicus with 12 samples.

Results

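Chemokines are small secreted or membrane-held proteins that attract leukocytes, and chemokine receptors are the seven-pass receptors through which cells sense them. The genes of both kinds were taken by symbol: every gene whose symbol starts with Ccl, Cxcl, Cx3cl, Xcl, Ccr, Cxcr, Cx3cr, Xcr or Ackr and a number, and Ccrl2. This gave 57 of the 32623 genes in the files, of which 34 encode ligands, 19 encode signalling receptors and 4 encode atypical receptors, which bind ligands without the usual signal. No symbol occurred on more than 1 row. Of the 57 genes, 41 had enough counts to be tested (26 ligands and 15 receptors, atypical ones included), and 16 did not.

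The libraries came from rat cells whose label is primary hepatic stellate cell, the liver pericyte that makes scar matrix. The rats had cirrhosis after chronic inhalation of carbon tetrachloride, in all 3 groups. The cells were kept for 24 h in Transwell co-culture, where a porous insert holds the other cells apart, with 15000 viable hAEC, with 15000 viable hAMSC, or with vehicle. The abbreviations stand for human amniotic epithelial cells and human amniotic mesenchymal stromal cells. Each group held 4 libraries, which carry their sample numbers: those with hAEC are 3, 4, 11 and 12, those with hAMSC are 7, 8, 15 and 16, and those with vehicle are 17 to 20.

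Chemokines are grouped by the spacing of their first cysteines, and most act on several receptors. In the injured liver, Kupffer cells, the resident macrophages, release chemokines that recruit neutrophils, through CXC ligands with an ELR motif, and monocytes, through ligands of Ccr2. Many of these genes are known targets of the transcription factor NF-kB, and the ligands of Cxcr3 are known for their induction by interferon.

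The labelled cell type went against the defining markers. All 12 macrophage markers were measured. Their summed level was 19446 to 21182 CPM (counts scaled to library size, with TMM factors) in libraries 11, 12, 15, 16, 19 and 20. It was 7785 to 8287 CPM in libraries 3, 4, 7, 8, 17 and 18. Lyz2 gave 8401 to 9941 CPM and 984 to 1195 CPM of these sums. Csf1r, Mrc1, Adgre1, C1qa, C1qb and C1qc were also higher in the former libraries. Cd68, Clec4f and Cd163 overlapped, and Cd14 (167 to 217 against 932 to 1080 CPM) and Marco ran the other way. The 12 stellate and myofibroblast markers summed to 29.1 to 34.9 CPM and 65.6 to 105 CPM in the same sets, of which Reln gave 6.71 to 15.4 CPM and 54.8 to 92.2 CPM. Ecm1 was also lower in the former libraries. Tagln (4.88 to 8.37 against 2.27 to 4.76 CPM), Ngfr (1.13 to 1.73 against 0.0615 to 0.181 CPM) and Lox were higher there. The remaining stellate markers overlapped. Acta2 stayed between 0.802 and 3.0 CPM and Lrat between 0 and 0.371 CPM. The 2 sets, named here the higher-numbered and the lower-numbered set, each held 2 libraries of every group, the higher and the lower sample numbers within that group, and the labels do not say what parts them. They parted along the first principal component of the 2000 most variable genes (73.5% of the variance), also when the chemokine genes were left out. Total counts were 27382724 to 34922211 per library.

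The promoters of 4 ligand genes are shown, chosen after their values were seen: Cxcl1 and Cxcl2, ELR chemokines far apart between the library sets, and the neighbouring pair Ccl6 and Ccl9. RefSeq sequences of build GRCr8 matched all 57 genes by symbol, and 44 had a promoter entry of 250 bases before to 50 bases after the start. Capitals mark a form of the NF-kB motif, GGG then any 2 bases then TTTCC, read on both strands. The windows lie on the minus strand at chr14:17479272-17479571 (Cxcl1), chr14:17467206-17467505 (Cxcl2), chr10:68883317-68883616 (Ccl6) and chr10:68868828-68869127 (Ccl9), and are written 5′ to 3′ in the direction of transcription.
Cxcl1: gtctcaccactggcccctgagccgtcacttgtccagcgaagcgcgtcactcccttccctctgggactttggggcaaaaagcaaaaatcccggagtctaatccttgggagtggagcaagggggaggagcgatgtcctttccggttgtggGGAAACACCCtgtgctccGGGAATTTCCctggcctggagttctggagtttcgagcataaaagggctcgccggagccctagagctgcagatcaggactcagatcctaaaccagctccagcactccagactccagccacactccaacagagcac
Cxcl2: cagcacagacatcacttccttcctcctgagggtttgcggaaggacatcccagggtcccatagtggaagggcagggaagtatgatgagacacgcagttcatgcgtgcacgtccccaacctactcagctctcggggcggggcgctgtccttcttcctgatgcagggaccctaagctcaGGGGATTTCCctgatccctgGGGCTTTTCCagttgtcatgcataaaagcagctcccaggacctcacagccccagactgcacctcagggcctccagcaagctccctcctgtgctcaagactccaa
Ccl6: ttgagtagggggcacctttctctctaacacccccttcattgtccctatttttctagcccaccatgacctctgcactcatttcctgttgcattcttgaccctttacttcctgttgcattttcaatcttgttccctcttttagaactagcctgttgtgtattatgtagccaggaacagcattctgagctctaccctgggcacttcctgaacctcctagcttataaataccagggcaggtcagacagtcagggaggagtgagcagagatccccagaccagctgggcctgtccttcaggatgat
Ccl9: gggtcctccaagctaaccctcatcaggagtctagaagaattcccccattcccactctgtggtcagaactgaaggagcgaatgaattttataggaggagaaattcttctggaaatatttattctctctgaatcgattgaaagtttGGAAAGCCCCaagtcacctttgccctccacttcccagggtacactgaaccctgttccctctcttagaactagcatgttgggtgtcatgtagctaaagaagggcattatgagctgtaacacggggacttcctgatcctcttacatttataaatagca
These letters occurred in 6 of the 44 chemokine and receptor promoters (13.6%) and in 512 of all 33469 promoter entries (1.53%). The former share took the first entry of each gene, and the latter every entry, also of genes not measured here. Cxcl1, Cxcl2 and Cxcl6, among the 6, are ELR genes on the same chromosome, 14. Cxcl1 and Cxcl2 each held 2 matches, Cxcl6, Ccl9 and Ccl20 held 1, as did Ccr3, which was too low to test. The Ccl6 window held none. Of 2 other motifs searched on both strands, the interferon motif GAAA then any 2 bases then GAAA occurred in 2 of the 44 promoters (4.55%), those of Cxcl10 and Ccl19, and in 3.92% of all promoters. The letters TATAAA occurred in 12 of the 44 (27.3%) and in 14.2% of all promoters. A match is a run of letters in this window and shows no binding.

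Chemokine genes differed far more between the library sets than between the groups. The sets were seen in these data, so their differences are described without a test. In the higher-numbered set, 2 of the 41 measured genes had a mean CPM at least 4-fold above the lower-numbered set, where 3.50% of all 13539 genes did. In the lower-numbered set 17 were at least 4-fold above the higher-numbered set, where 3.55% of all genes were. Ligands carried most of this, since 15 of 26 were at least 4-fold higher in the lower-numbered set, and their median log2 difference, higher-numbered over lower-numbered, was -2.26. For the 15 receptor genes the median was 0.0045, and for all genes -0.0047. In 6 genes every higher-numbered library lay above every lower-numbered library, as in 26.9% of all genes, and in 26 every one lay below, as in 28.0% of all genes. A gene that is measured through its high set alone had to differ, so these counts describe the genes and support no claim about them.

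**Figure D1:**
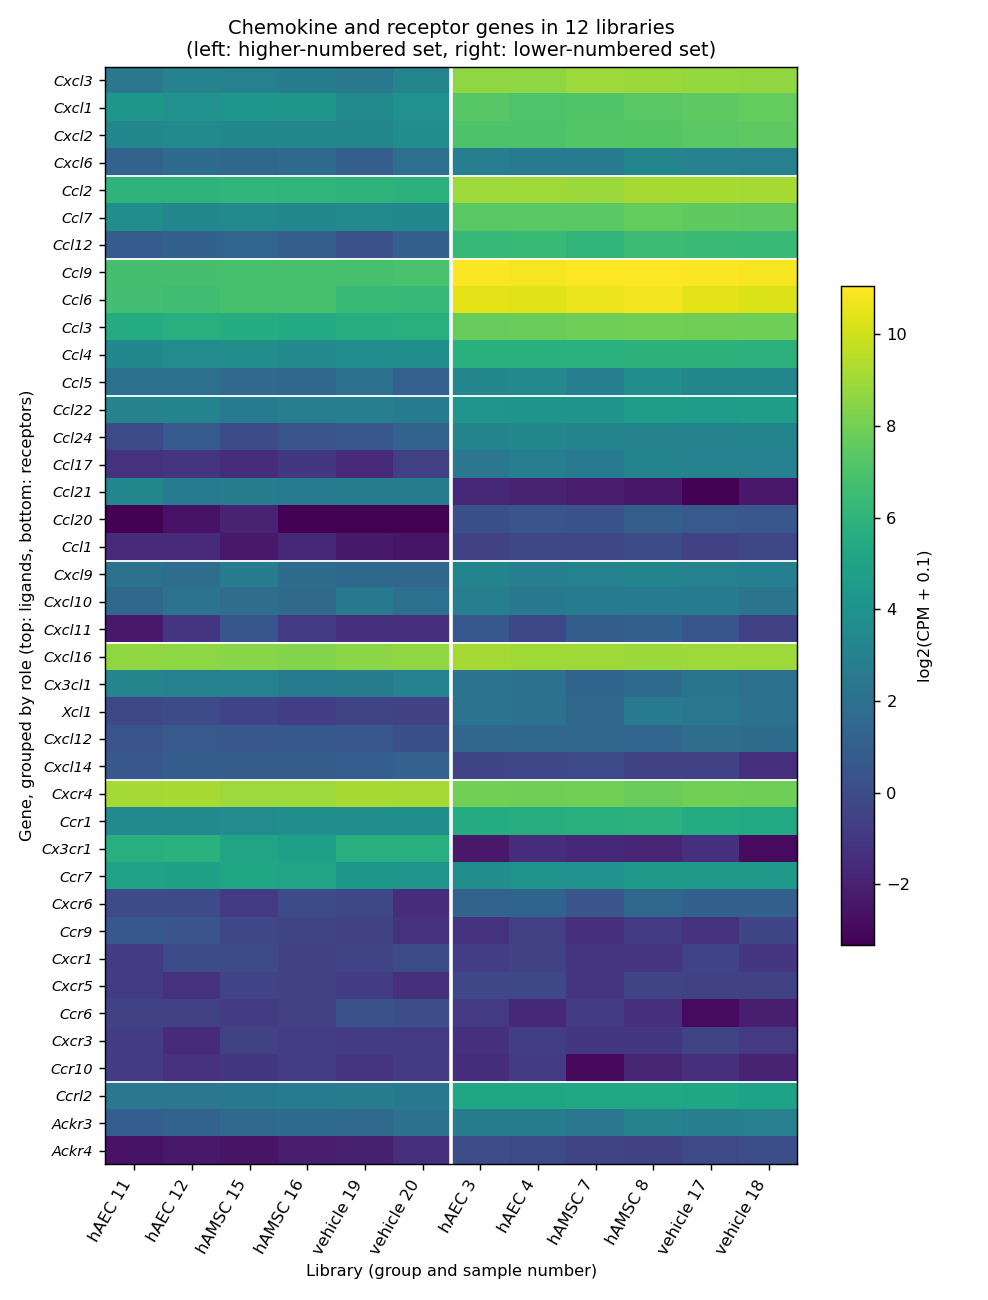
Level of 40 of the 41 measured chemokine and receptor genes (rows, grouped by role) in each of the 12 libraries (columns), as log2(CPM + 0.1) in colour; the higher-numbered set stands left of the white line and the lower-numbered set right of it. Colours compare libraries within a row only, since CPM are not per gene length: most ligand rows turn lighter to the right, and Cx3cr1 and Ccl21 turn darker.

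The ELR ligands, which attract neutrophils through Cxcr2, lay far apart in the 2 sets. Cxcl3 was at 5.22 to 9.17 CPM (median 7.21) in the higher-numbered set and at 395 to 483 CPM (median 434) in the lower-numbered set, a 61.9-fold difference of means. Cxcl2 was at 9.74 to 13.0 CPM (median 10.2) and 129 to 180.1 CPM (median 151) in the same sets, or 14.1-fold apart. Cxcl1 was at 11.01 to 19.7 CPM (median 16.8) and 139 to 202 CPM (median 162), or 10.02-fold apart. Cxcl6 differed least of the 4, at 1.91 to 3.76 CPM in the higher-numbered and 6.02 to 9.10 CPM in the lower-numbered set. No higher-numbered library overlapped the lower-numbered set in any of the 4 genes.

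The Ccr2 ligands, which draw monocytes out of the blood, showed the same order of sets. Ccl2 was at 60.3 to 69.0 CPM (median 65.8) in the higher-numbered set and 476 to 581 CPM (median 536) in the lower-numbered set, 8.12-fold apart. Ccl7 was at 10.3 to 13.7 CPM (median 10.9) and 164 to 203 CPM (median 173), 15.7-fold apart. Ccl12, a Ccr2 ligand in mouse, was at 1.09 to 2.46 CPM (median 1.98) and 66.5 to 93.4 CPM (median 81.9), 43.3-fold apart. The 3 genes lie side by side with Ccl11 and Ccl1 on chromosome 10 in the GRCr8 annotation, where Ccl11 stands between Ccl7 and Ccl12. Ccl11, an eosinophil attractant, had 1 count over all 12 libraries.

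Ccl6 and Ccl9, rodent CC chemokines of myeloid cells that act on Ccr1 in mouse, held a larger share of the ligand counts in the lower-numbered set. Together they held 24.3% to 30.0% of the counts of the ligand genes taken by symbol in the higher-numbered set and 55.4% to 61.0% in the lower-numbered set. Ccl9 was at 111 to 119 CPM (median 118) in the higher-numbered set and 1833 to 2118 CPM (median 1971) in the lower-numbered set, 16.9-fold apart. Ccl6 was at 80.4 to 116 CPM (median 105) and 1274 to 1746 CPM (median 1397), 14.3-fold apart. Ccl3 (4.77-fold) and Ccl4 (4.82-fold), genes of macrophage inflammatory proteins that follow Ccl6 in that order in the annotation, differed less, and Ccl5 lay 3.19-fold apart. No library of a set overlapped the other set in any of these 5 genes.

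Cxcl16, a membrane-held ligand of Cxcr6, differed little between the sets. It was at 338 to 405 CPM in the higher-numbered set and 471 to 543 CPM in the lower-numbered set, 1.34-fold apart. Its share of the counts of the ligand genes taken by symbol was 43.3% to 49.2% in the higher-numbered set and 7.40% to 9.54% in the lower-numbered set. Over all ligand genes taken by symbol, the share of a library's counts was 0.0764% to 0.0826% in the higher-numbered set and 0.551% to 0.648% in the lower-numbered set. All these shares leave out Pf4, a chemokine gene outside the symbol rule. Pf4 averaged 651 CPM in the higher-numbered and 134 CPM in the lower-numbered set. Counting it would lower the shares of Cxcl16, Ccl6 and Ccl9 among ligands.

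The other CC ligands were low. Ccl17, a ligand of Ccr4, was at 0.247 to 0.548 CPM (median 0.338) in the higher-numbered and 5.13 to 8.95 CPM (median 7.25) in the lower-numbered set, 19.9-fold apart. Ccl22, which shares that receptor, lay 2.96-fold apart, with both sets separate. Ccl24, an eosinophil attractant through Ccr3, was at 0.848 to 2.27 CPM (median 1.29) and 8.45 to 9.84 CPM (median 8.73), 6.50-fold apart. Ccl20, the ligand of Ccr6, had counts of 2 in hAEC 12 and 5 in hAMSC 15, 0 in the other 4 higher-numbered libraries, and 31 to 63 in the lower-numbered ones. Ccl1, at 4.58-fold, lay just inside the 4-fold limit and Ccr1, at 3.95-fold, just outside.

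A few genes ran the other way. Cx3cr1, the receptor for fractalkine on monocytes and resident macrophages, was at 27.5 to 58.8 CPM (median 51.5) in the higher-numbered set and at 0.0323 to 0.289 CPM (median 0.193) in the lower-numbered set, where its counts were 1 to 8 per library. Ccl21, a Ccr7 ligand of lymphatic tissue, was at 5.68 to 9.59 CPM (median 6.45) in the higher-numbered and 0 to 0.202 CPM (median 0.106) in the lower-numbered set. Cx3cl1, fractalkine itself, was 2.05-fold higher in the higher-numbered set, at 6.16 to 9.13 CPM against 2.35 to 4.73 CPM. Cxcl14, a tissue chemokine, was 2.86-fold higher there and lay between 0.291 and 2.16 CPM over all libraries.

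**Figure D2:**
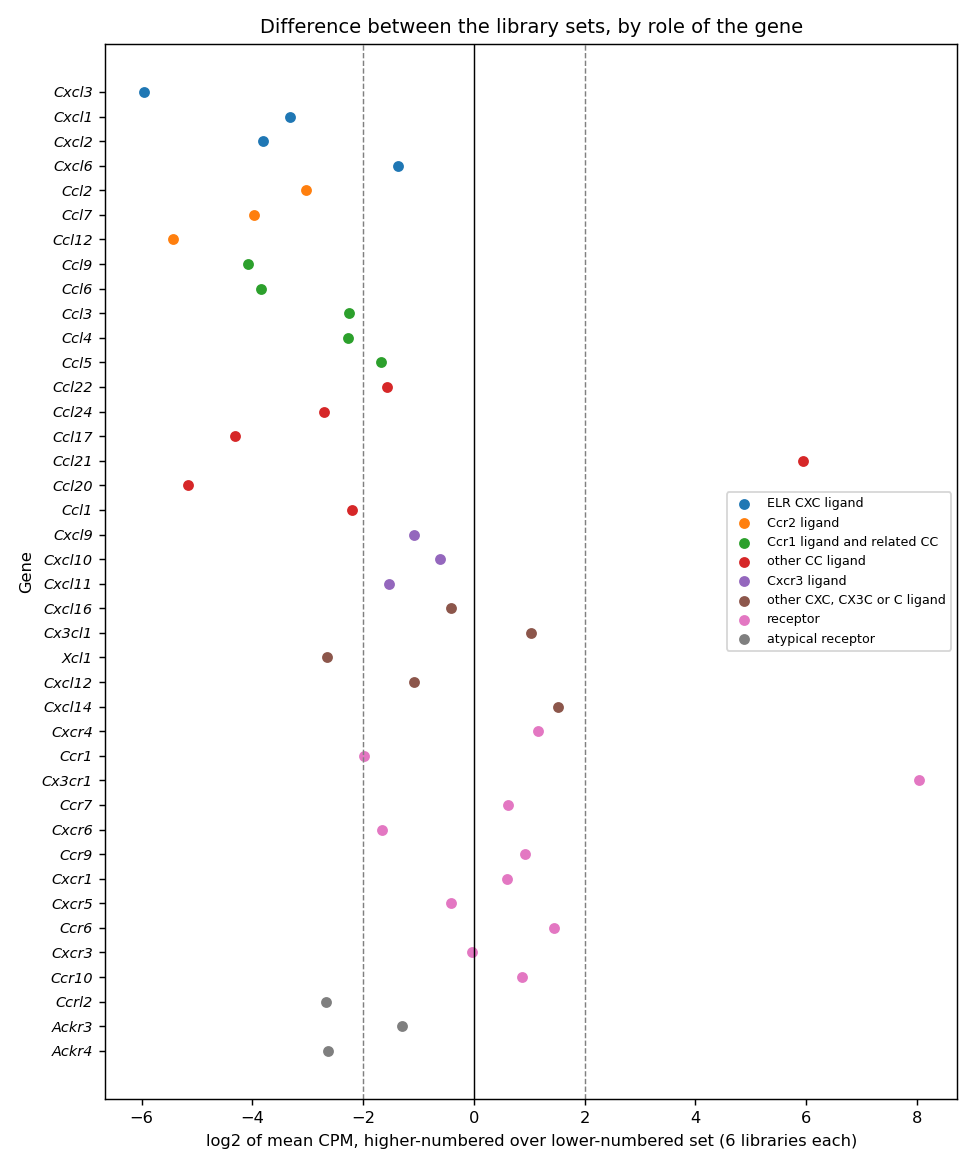
Log2 of mean CPM in the 6 higher-numbered libraries over that in the 6 lower-numbered libraries (horizontal axis) for 40 of the 41 measured genes, coloured by role; dashed lines stand at a 4-fold difference. Ligand points lie mostly left of 0, down to -5.95 for Cxcl3, and receptor points lie on both sides, up to 8.03 for Cx3cr1.

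Receptor genes lay on both sides. Cxcr4, which binds Cxcl12, was at 488 to 575 CPM (median 559) in the higher-numbered set and 219 to 255 CPM (median 249.9) in the lower-numbered set, 2.22-fold apart. Ccr1 was at 11.1 to 14.0 CPM in the higher-numbered and 42.8 to 57.3 CPM in the lower-numbered set. Cxcr6, the receptor of Cxcl16, was at 0.256 to 0.880 CPM and 1.26 to 2.83 CPM. Among the atypical receptors, Ccrl2, which binds the attractant chemerin, was at 4.995 to 6.53 CPM in the higher-numbered and 31.9 to 39.8 CPM in the lower-numbered set. Ackr3, which takes up Cxcl12, was at 1.83 to 3.95 CPM and 4.96 to 8.64 CPM in the same sets. Cxcr1, Cxcr3, Cxcr5, Ccr6, Ccr9, Ccr10 and Ackr4 each averaged below 1 CPM over the 12 libraries.

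Ccr2 and Cxcr2, named above as receptors of the monocyte and neutrophil attractants, were below the filter. Ccr2 had 10 counts over all 12 libraries, all in the higher-numbered set, and Cxcr2 had 48. The other untested receptors were Ccr3 (60 counts in all), Ccr1l1, Ccr4, Ccr8, Xcr1 and Ackr2, which had 1 count. The untested ligands were Ccl11, Ccl19, Ccl25, Ccl26, Ccl27, Cxcl13 and Cxcl17, and Ccl28, which was at 0 in all 12 libraries. None of the 16 untested genes reached more than 12 counts in any library or a mean above 0.170 CPM.

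Several marker lists moved with the sets. Neutrophil markers summed to 35.8 to 47.4 CPM in the higher-numbered and 3.31 to 4.72 CPM in the lower-numbered set, with S100a8 at 0.221 to 1.43 CPM and S100a9 at 0 to 0.44 CPM over all libraries. That sum was mostly Mmp8 and Csf3r, while Camp ran the other way, at 0.424 to 0.988 CPM and 1.83 to 2.78 CPM. Endothelial markers summed to 530 to 716 CPM and 2222 to 2582 CPM, of which Fcgr2b, also an Fc receptor of leukocytes, gave 258 to 377 CPM and 1634 to 1932 CPM. Cdh5 was at 43.6 to 64.8 CPM and 163 to 187 CPM. Lyve1 was at 2.54 to 10.8 CPM and 83.3 to 117 CPM. Tek, Ptprb, Erg and Egfl7 were also higher in every lower-numbered library. Tie1, an endothelial kinase, was at 175 to 198 CPM and 153 to 177 CPM, and Kdr, Stab2, Emcn and Clec4g also overlapped. Lymphocyte markers summed to 2.75 to 5.79 CPM and 12.6 to 14.8 CPM, mostly Cd2, Nkg7 and Klrd1, while the T cell gene Cd3e was at 0.318 to 0.88 CPM and 0.0573 to 0.492 CPM. In bulk samples fewer cells of a type and less RNA per cell cannot be told apart, and the part of these lists in the chemokine differences was not tested.

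Ccl6 rose with hAMSC, and no other chemokine or receptor gene passed the test against vehicle in the model with the library set. Ccl6 was at 116 and 116 CPM in hAMSC 15 and 16, against 84.7 and 80.4 CPM in vehicle 19 and 20. In the lower-numbered set it was at 1574 and 1746 CPM in hAMSC 7 and 8, against 1388 and 1274 CPM in vehicle 17 and 18. Both hAMSC libraries thus lay above both vehicle libraries within each set. The rise was 1.32-fold, a log2 difference of 0.40 (SE 0.064, 95% interval 0.26 to 0.54), and passed over all genes (edgeR quasi-likelihood test with the set in the model and Benjamini-Hochberg adjustment, adjusted p = 0.0277, n = 4 against 4). The background was 0.236% of all genes called in this comparison. The log2 difference was 0.49 within the higher-numbered and 0.32 within the lower-numbered set (edgeR adjusted p = 0.00162 and 0.0867, where 1.02% and 0.0812% of all genes passed within these sets).

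The Ccl6 call rested on several single libraries. It was lost without hAMSC 8 (edgeR adjusted p = 0.103), hAMSC 16 (0.0991), vehicle 18 (0.112), vehicle 19 (0.113) or vehicle 20 (0.0657), while the log2 difference stayed between 0.36 and 0.46 over all 12 fits that left out 1 library. It passed in the higher-numbered set fitted alone (0.00265) and not in the lower-numbered set fitted alone (log2 0.33, edgeR adjusted p = 0.0628). With the group alone in the model no gene of the series passed in any comparison. The summed endothelial markers, with the leukocyte Fc receptor Fcgr2b as the largest part, also lay higher with hAMSC than with vehicle in both sets. They were at 678 to 716 against 530 to 549 CPM in the higher-numbered and 2461 to 2582 against 2272 to 2302 CPM in the lower-numbered set. Their part in the Ccl6 difference was not tested.

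**Figure D3:**
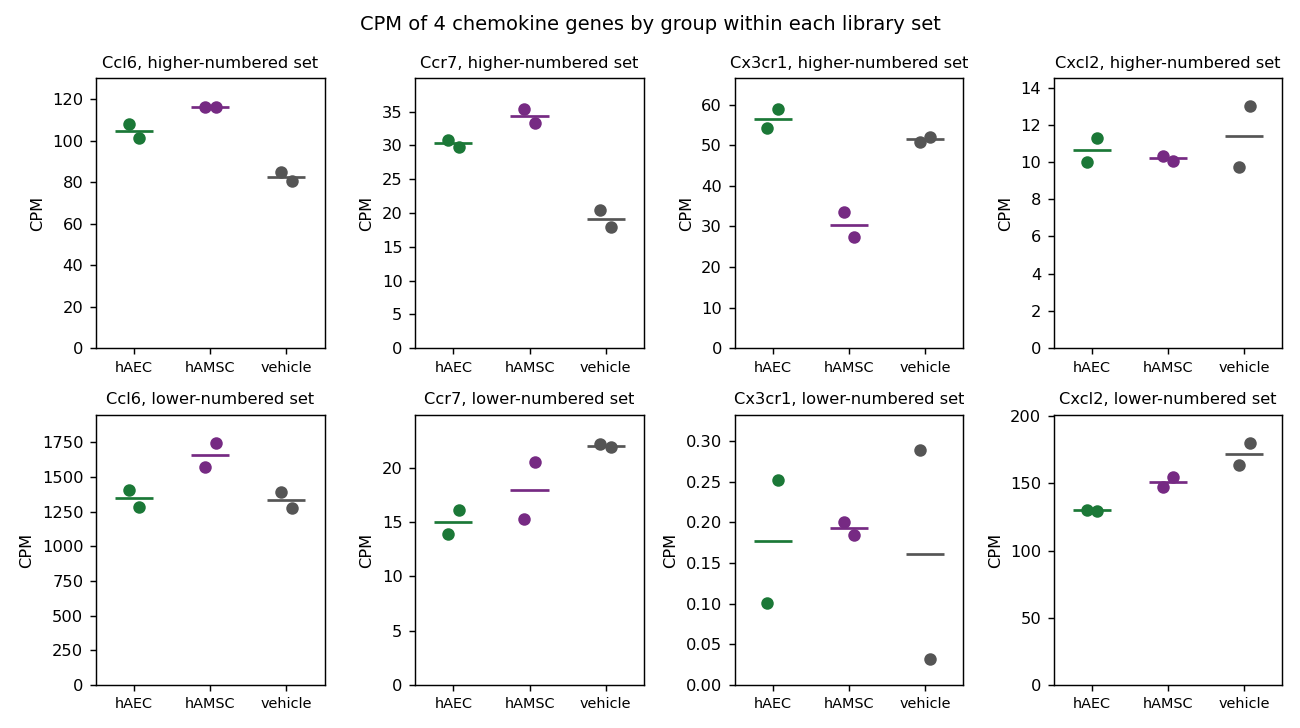
CPM of Ccl6, Ccr7, Cx3cr1 and Cxcl2 (vertical axes, each from 0 and with its own scale) by group, with 1 point per library and a line at the mean of 2 libraries; the upper row holds the higher-numbered set and the lower row the lower-numbered set. Ccl6 points of hAMSC lie above those of vehicle in both rows, and Ccr7 points of hAEC and hAMSC lie above vehicle in the upper row and below it in the lower row.

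With hAMSC, 7 of the 41 genes had an unadjusted p under 0.05 by edgeR's quasi-likelihood test (4 higher, 3 lower), where 9.68% of all genes did. Cx3cr1 was at 33.4 and 27.5 CPM in hAMSC 15 and 16, against 50.8 and 52.1 CPM in vehicle 19 and 20. Both hAMSC libraries lay below both vehicle libraries in this set, and in the lower-numbered set counts were 7 and 6 in hAMSC 7 and 8, against 8 and 1 in vehicle 17 and 18. Its log2 difference was -0.70 (SE 0.18) and did not pass (edgeR adjusted p = 0.180). It passed by limma voom (adjusted p = 0.0129, where 0.259% of all genes passed) and by edgeR in the higher-numbered set fitted alone (adjusted p = 0.00324, where 0.700% passed).

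Among the interferon-induced ligands of Cxcr3, which attract activated T cells, Cxcl11 and Cxcl9 had hAMSC libraries above vehicle libraries in both sets. Cxcl11 was at 1.31 and 0.440 CPM in hAMSC 15 and 16, against 0.282 and 0.292 CPM in vehicle 19 and 20. It was at 1.81 and 2.12 CPM in hAMSC 7 and 8, against 1.34 and 0.614 CPM in vehicle 17 and 18. These are counts of 12 to 69 in hAMSC and 8 to 37 in vehicle libraries, and the log2 difference of 1.28 (SE 0.42) did not pass (edgeR adjusted p = 0.311). Cxcl9 was at 6.34 and 3.23 CPM in hAMSC 15 and 16, against 2.79 and 2.59 CPM in vehicle 19 and 20. It was at 7.94 and 8.86 CPM in hAMSC 7 and 8, against 7.47 and 7.28 CPM in vehicle 17 and 18, with a log2 difference of 0.48 (SE 0.18, edgeR adjusted p = 0.417). Without hAMSC 15 the Cxcl9 difference was 0.23. Cxcl10, their neighbour on chromosome 14, had a log2 difference of -0.21 (edgeR adjusted p = 0.783).

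Over all measured genes, 3 had both hAMSC libraries above both vehicle libraries in each set (Ccl6, Cxcl9 and Cxcl11), where 3.94% of all genes did. Ackr4, which scavenges Ccr7 ligands, was the only gene of the 41 with hAMSC below vehicle in both sets (4.49% of all genes). It had counts of 2 to 23 in hAMSC and 4 to 31 in vehicle libraries. The median log2 difference was -0.0048 over the 41 genes and -0.0027 over all genes.

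Cxcr4 was at 488 and 498 CPM in hAMSC 15 and 16, against 567 and 560.4 CPM in vehicle 19 and 20. It was at 252 and 219 CPM in hAMSC 7 and 8, against 254 and 232 CPM in vehicle 17 and 18, where the groups overlapped. The log2 difference was -0.12 (SE 0.046, edgeR adjusted p = 0.413). Ccr1 had a log2 difference of 0.18 (SE 0.073, edgeR adjusted p = 0.430), with 0.02 within the higher-numbered and 0.33 within the lower-numbered set, and passed in the lower-numbered set fitted alone (edgeR adjusted p = 0.0385, where 0.638% of all genes passed).

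For hAEC against vehicle with the library set in the model, 0 of the 41 genes passed by edgeR, by limma voom or by DESeq2. There edgeR called 0% of all genes. At an unadjusted p under 0.05 there were 4 genes (1 higher, 3 lower), where 5.61% of all genes were. The median log2 difference was -0.015 over the 41 genes and -0.0032 over all genes. The smallest p belonged to Cxcl2. Cxcl2 was at 9.98 and 11.3 CPM in hAEC 11 and 12, against 9.74 and 13.0 CPM in vehicle 19 and 20. In the lower-numbered set it was at 131 and 129 CPM in hAEC 3 and 4, against 164 and 180.1 CPM in vehicle 17 and 18. The groups overlapped in the higher-numbered set and were apart in the lower-numbered set, and the log2 difference of -0.29 (SE 0.082) did not pass (edgeR adjusted p = 0.860).

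The genes of macrophage inflammatory proteins were next. Ccl3 was at 45.5 and 51.3 CPM in hAEC 11 and 12, against 50.3 and 54.3 CPM in vehicle 19 and 20. It was at 211 and 217 CPM in hAEC 3 and 4, against 245 and 239 CPM in vehicle 17 and 18, with a log2 difference of -0.15 (SE 0.055, edgeR adjusted p = 0.881). Ccl4 was at 10.3 and 12.3 CPM in hAEC 11 and 12, against 12.4 and 14.2 CPM in vehicle 19 and 20. It was at 56.5 and 54.6 CPM in hAEC 3 and 4, against 63.2 and 60.1 CPM in vehicle 17 and 18. Ccl4 thus lay below vehicle in both sets, with a log2 difference of -0.18 (SE 0.072, edgeR adjusted p = 0.881), as did Ackr3, where 3.60% of all genes did.

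Ackr3 was at 1.83 and 2.29 CPM in hAEC 11 and 12, against 2.93 and 3.95 CPM in vehicle 19 and 20. It was at 6.84 and 6.84 CPM in hAEC 3 and 4, against 7.04 and 7.57 CPM in vehicle 17 and 18, with a log2 difference of -0.37 (SE 0.18, edgeR adjusted p = 0.881). Ccl6 was at 108 and 102 CPM in hAEC 11 and 12, against 84.7 and 80.4 CPM in vehicle 19 and 20, and overlapped in the lower-numbered set, at 1406 and 1284 CPM in hAEC 3 and 4, against 1388 and 1274 CPM in vehicle 17 and 18. Its log2 difference was 0.17 (SE 0.064, edgeR adjusted p = 0.881). Cxcr6 was the only gene with hAEC above vehicle in both sets, where 4.39% of all genes were. For the monocyte attractant Ccl2 the 95% interval of the log2 difference from vehicle was -0.21 to 0.06 with hAEC and -0.14 to 0.13 with hAMSC.

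**Figure D4:**
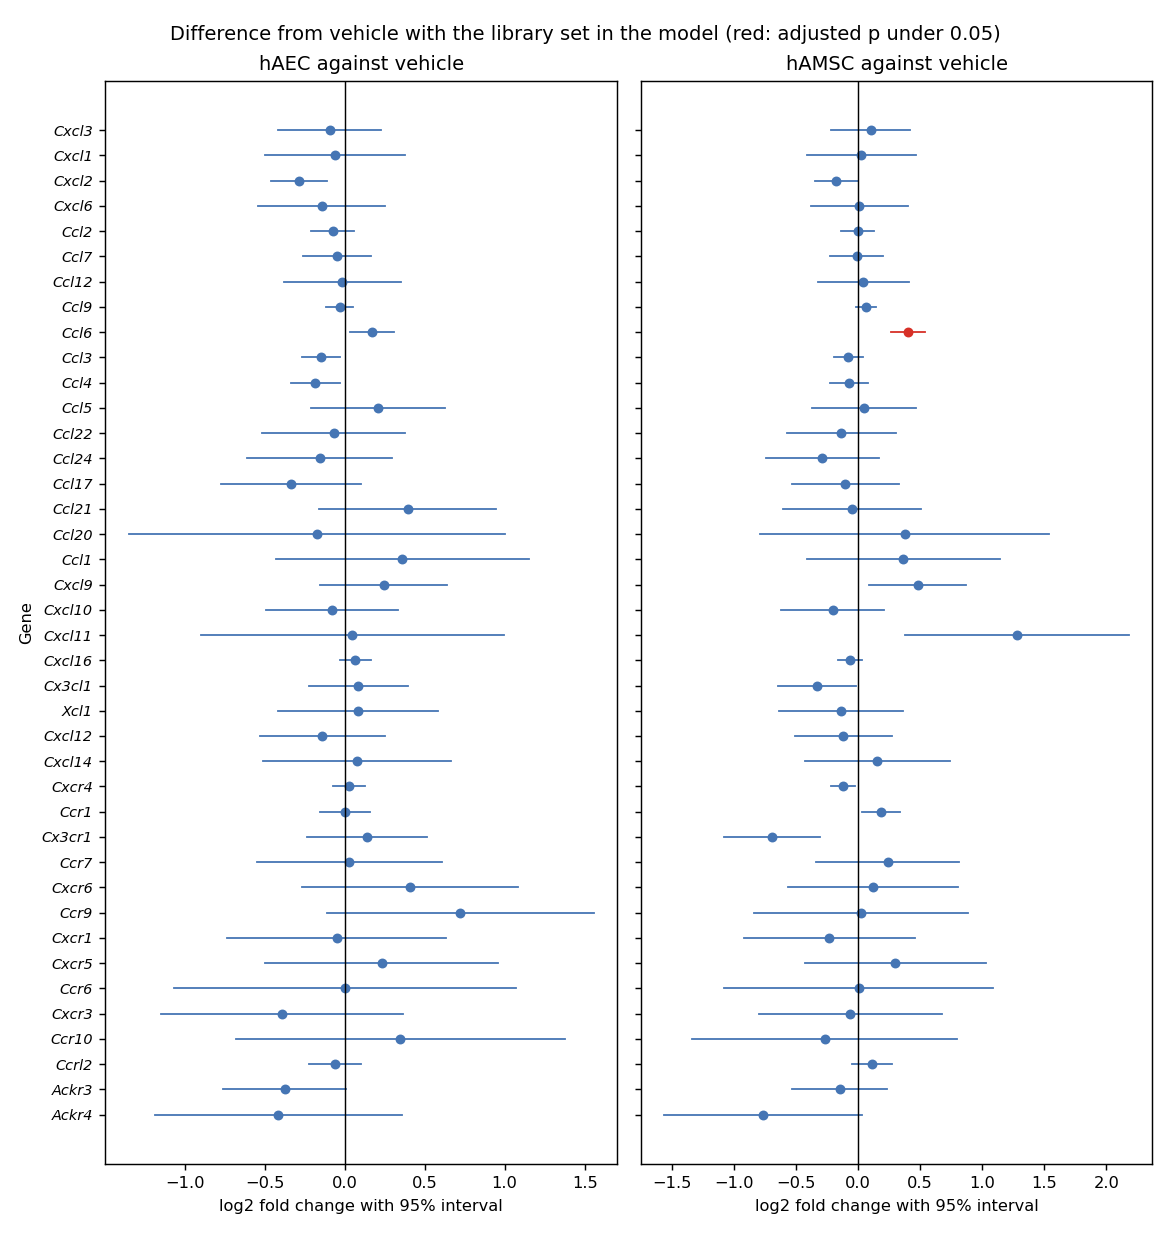
Log2 fold change against vehicle (horizontal axis, points) with its 95% interval (lines) for 40 of the 41 measured genes, hAEC left and hAMSC right, from the edgeR fit with the library set as a term. The red point, Ccl6 with hAMSC at 0.40, passed at an adjusted p of 0.0277, and no hAEC point passed.

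Between the 2 co-cultures, 0 of the 41 genes passed by edgeR or DESeq2 and 1, Cx3cr1, by limma voom, while edgeR called 0.0222% of all genes and limma voom 0.0295%. At an unadjusted p under 0.05 there were 9 genes (4 higher, 5 lower), where 6.37% of all genes were. Cx3cr1 was at 54.3 and 58.8 CPM in hAEC 11 and 12, against 33.4 and 27.5 CPM in hAMSC 15 and 16. The log2 difference of 0.84 (SE 0.18) did not pass by edgeR (adjusted p = 0.156), passed by limma voom (adjusted p = 0.00823), and passed by edgeR in the higher-numbered set alone (adjusted p = 0.00181, where 0.432% of all genes passed) and without vehicle 18 (adjusted p = 0.0392). Its level in the lower-numbered set was at most 8 counts in any library.

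The other members of smallest p differed by less. Cxcr4 was at 557 and 575 CPM in hAEC 11 and 12, against 488 and 498 CPM in hAMSC 15 and 16. It was at 255 and 248 CPM in hAEC 3 and 4, against 252 and 219 CPM in hAMSC 7 and 8, where the groups overlapped. The log2 difference was 0.15 (SE 0.046, edgeR adjusted p = 0.463), and it passed without hAMSC 7 (edgeR adjusted p = 0.0394). Cxcl16 was at 399 and 388 CPM in hAEC 11 and 12, against 359.7 and 338 CPM in hAMSC 15 and 16. It was at 543 and 517 CPM in hAEC 3 and 4, against 519 and 471 CPM in hAMSC 7 and 8, with a log2 difference of 0.13 (SE 0.045, edgeR adjusted p = 0.531).

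Ccl6 was lower with hAEC than with hAMSC by a log2 difference of -0.23 (SE 0.063) and Cxcl11 by -1.23 (SE 0.42), and neither passed (edgeR adjusted p = 0.351 and 0.531). Ccl6, Ccl9, Cxcl11, Ccr1 and Ccrl2 lay below hAMSC in every hAEC library of each set, 5 of the 41 genes, where 3.83% of all genes did. None lay above in both sets, where 3.69% of all genes did.

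Ccr7, the receptor that guides dendritic cells and T cells to lymph nodes, differed from vehicle by an amount that changed with the set. It was at 35.4 and 33.3 CPM in hAMSC 15 and 16, against 20.5 and 17.9 CPM in vehicle 19 and 20. In the lower-numbered set it was at 15.3 and 20.6 CPM in hAMSC 7 and 8, against 22.2 and 21.9 CPM in vehicle 17 and 18. The hAMSC libraries lay above vehicle in the higher-numbered set (log2 0.84, edgeR adjusted p = 0.00306 within that set). They lay below it in the lower-numbered set (log2 -0.30), where the difference did not pass (edgeR adjusted p = 0.359). The change of this difference between sets, higher-numbered minus lower-numbered, was 1.14 (SE 0.17) on the log2 scale and passed over all genes (edgeR quasi-likelihood interaction term with Benjamini-Hochberg adjustment, adjusted p = 0.0173). The background was 0.199% of all genes called. It was lost without hAMSC 15 (adjusted p = 0.0988), vehicle 17 (0.0653), vehicle 18 (0.0937), vehicle 19 (0.0538) or vehicle 20 (0.0977), and by limma voom (0.0647) or with hAMSC and vehicle fitted alone by edgeR (0.0522).

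With hAEC, Ccr7 was at 30.9 and 29.8 CPM in hAEC 11 and 12, against the same 20.5 and 17.9 CPM in vehicle 19 and 20, and at 13.9 and 16.1 CPM in hAEC 3 and 4, against 22.2 and 21.9 CPM in vehicle 17 and 18. The 2 interactions share the vehicle libraries. In the fit of all 12 libraries the hAEC difference did not pass within either set. It was log2 0.66 (edgeR adjusted p = 0.22) in the higher-numbered and -0.56 (0.547) in the lower-numbered set. In the higher-numbered set fitted alone it passed (log2 0.66, edgeR adjusted p = 0.0232), where 6 of all genes passed. The hAEC interaction was 1.22 (SE 0.17) and did not pass (edgeR adjusted p = 0.0928). DESeq2 called it, as 1 of 41 genes and with 0.170% of all genes called. By edgeR it passed with hAEC and vehicle fitted alone (adjusted p = 0.0016), without hAMSC 7 (0.00178) and without hAMSC 8 (0.00217). It also passed with no filter on low counts (edgeR adjusted p = 1.97e-13), where 309 of all genes passed, against 0 with the filter. By edgeR 0 of 41 genes passed for hAEC, where 0% of all genes did, with 10 at an unadjusted p under 0.05 against 5.40% of all genes, and limma voom called 0. For the hAMSC interaction 9 of 41 had an unadjusted p under 0.05 by edgeR, against 1358 of all 13539 genes. Dendritic cell markers, summed and mostly Itgax, were at 535 to 595 CPM with hAMSC and 564 to 573 CPM with vehicle in the higher-numbered set, so the groups overlapped there. In the lower-numbered set they were at 506 to 513 CPM with hAMSC and 454 to 476 CPM with vehicle. Between the sets this list was mixed, with Itgax and Flt3 higher in the higher-numbered set. Zbtb46 (1.97 to 3.37 against 8.80 to 9.89 CPM), Batf3 and Clec9a were lower there. The part of these markers in the Ccr7 differences was not tested. Ccr6, at 16 and 9 counts in hAMSC 7 and 8 and at 1 and 4 counts in vehicle 17 and 18, had a change between sets of -3.07 (SE 0.82, edgeR adjusted p = 0.161).

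Genes through which the receptors signal, or that cut or resemble chemokines, were taken from lists chosen by function: 61 were tested, and 0 rose and 0 fell in each of the 3 comparisons by edgeR. At an unadjusted p under 0.05 there were 5 of 61 for hAEC against vehicle (5.61% of all genes), 11 for hAMSC against vehicle (9.68% of all genes) and 16 for hAEC against hAMSC (6.37% of all genes). With hAEC the smallest p against vehicle belonged to Rgs1, which shortens signalling of G proteins (log2 0.19), Grk6, a kinase that switches receptors off (-0.12), and Adam10, which sheds Cxcl16 and Cx3cl1 (0.13). With hAMSC they belonged to Cmtm6, named for its likeness to chemokines (0.16, edgeR adjusted p = 0.0504), Pik3r6, a subunit of the kinase PI3K gamma (-0.26), and Arrb2, an arrestin of receptor uptake (-0.13). Between hAEC and hAMSC the smallest p belonged to Rgs1 (0.27, edgeR adjusted p = 0.102) and Arrb2 (0.15). Pf4, a chemokine gene whose symbol falls outside the rule and which adjoins Cxcl3, averaged 651 CPM in the higher-numbered and 134 CPM in the lower-numbered set.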

How the data were processed

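Polyadenylated RNA was measured in 12 rat libraries, 4 per group. The authors deposited expected counts, the RSEM estimate for each gene. The submitters' processing notes list FastQC, Trim Galore, STAR, RSEM, limma, rn6 and Rnor_6.0; which version ran and for what is not given in the sources used here. The kit was TruSeq stranded mRNA, per the labels' protocols. RSEM shares reads that fit several genes: of the chemokine genes, Ccl3 and Cxcl16 had counts that were not whole in all 12 libraries, and Ccl6 and Ccl9 in 1.

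After rounding, the expected counts entered edgeR 4.0.16 (R 4.3.3): filterByExpr (13539 genes kept), TMM factors of 0.973 to 1.03, and the robust quasi-likelihood test with group and library set as terms over all 12 libraries, Benjamini-Hochberg adjustment over all genes tested and a threshold of 0.05. An interaction of group and set used cells of 2 libraries. The standard error is the unshrunk log2 coefficient divided by the root of the F statistic. The set follows the order of sample numbers within each group, not over all groups, and was seen in earlier results of these data. The biological coefficient of variation was 38.9% for a model of the group alone and fell to 9.91% once the set was a term. DESeq2 1.42.0 and limma 3.58.1 were alternatives, beside other scalings and filters and leaving out each library. All tests were two-sided, and the script was tested on simulated counts.

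The genes and lists were chosen with earlier results of these data known. Values are given for genes that passed, for the 5 genes of smallest p in each comparison, and for up to 10 genes per direction that differ most between the sets at a mean of at least 5 CPM in one of them. Every receptor with a mean of at least 1 CPM is named, except that some genes which these rules would name are not reported here; they stay in the counts. The 4 promoters printed and genes called in other fits only were chosen after values were seen. Whether a group's libraries stem from different rats or cultures is not in the labels, so its p-values reflect the spread of these libraries alone, which may be technical. No pair of libraries agreed within sampling noise. CPM are not per length, so levels of different genes are not compared. Coordinates of the files' build are not given; those printed are RefSeq's for GRCr8.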

Additional observations from a re-analysis of the deposited data

Results flagged for a closer look

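The hAMSC difference from vehicle in Ccr7 changed with the library set by 1.138 on the log2 scale, higher-numbered minus lower-numbered. The test is of the change in size between sets, and the lower-numbered difference did not pass by itself (edgeR adjusted p = 0.359). Every hAMSC library of the higher-numbered set lay above, and every one of the lower-numbered set below, the vehicle libraries of its set.

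The Cxcr3 level of vehicle 17, 0.6859 CPM, stood apart from the other 3 vehicle libraries, which lay at 0.420 to 0.459 CPM. Of 123 groups of 4 libraries checked for such a gap 1 had it. Each group holds libraries of both sets, so in genes whose sets do not overlap a single library could hardly stand apart in this way, and the usual rate of about 1 in 20 groups by chance does not apply. Cxcr3, the receptor of Cxcl9, Cxcl10 and Cxcl11, averaged below 1 CPM in every group.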

How the results depend on the processing

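No paired analysis was possible because the groups share no sample numbers. Of 380 values for single genes under other settings, 355 kept direction and side of the threshold, 14 no longer passed, 11 newly passed and 0 reversed. All 14 losses fell on Ccl6 with hAMSC and the hAMSC interaction of Ccr7, the only 2 results among these that passed in the main fit. The other results had no call to lose, so the 355 do not measure how stable the calls were. Limma voom called 2 genes for hAMSC against vehicle (Ccl6, Cx3cr1), 1 for hAEC against hAMSC (Cx3cr1) and 0 for the hAMSC interaction. Of all genes it called 35, 4 and 4 in that order. The group alone called 0 for hAMSC against vehicle. The higher-numbered set alone called 3 for hAMSC against vehicle (Ccl6, Ccr7, Cx3cr1), beside 94 of all genes. It called 1 for hAEC against vehicle (Ccr7), beside 6, and 1 for hAEC against hAMSC (Cx3cr1), beside 58. In the interactions, no filter on low counts called 4 for hAEC and 3 for hAMSC, beside 309 and 533 of all genes (0 and 27 with the filter). DESeq2 called 1 for hAEC beside 23 of all genes, and the groups compared alone called 2 for hAEC (Ccr7, Ccl22) and 0 for hAMSC, beside 8 and 12. Leaving out 1 library gave 0 to 0 genes for hAEC against vehicle, and 0 to 1 for hAMSC against vehicle, for hAEC against hAMSC and for each interaction. The count at least 4-fold apart between sets, 19, ran from 19 to 20 without 1 library and was 20 with scaling by library size and 15 at a mean of at least 5 CPM. The causes of these moves were not tested. Genes under about 1 CPM, Cxcl11, Ccr6 and Ackr4 among them, rest on few counts per library, so differences in them may not be detectable at this depth.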
